A study of Mus musculus with 2 samples.

Results

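The mitochondrial genome of mouse macrophages was represented by 32 probe sets, those of 35556 on the array that the deposited table places on chromosome M. They comprised 18 probe sets of transfer RNAs (tRNAs), 2 of ribosomal RNAs (rRNAs) and 12 of messenger RNAs (mRNAs), told apart by their annotation and strand. RNA came from bone-marrow-derived macrophages of the C57BL/6J strain, grown for 7 days in medium with L929 culture supernatant, which supplies the macrophage growth factor CSF1. Oasl1-/- cells and wild-type (WT) cells had both been exposed for 9 h to poly(I:C) at 5 µg/ml, which imitates viral double-stranded RNA. For each genotype the RNA of 3 samples was mixed before hybridisation to 1 Affymetrix Mouse Gene ST array. The series thus has 2 arrays and none of untreated cells. OASL1 belongs to the oligoadenylate synthetase-like proteins, which are induced by interferon. The comparison asked how loss of Oasl1 alters the RNA of macrophages after double-stranded RNA, here for the RNAs made inside the mitochondrion.

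Mitochondrial DNA encodes mRNAs of respiratory chain and ATP synthase subunits, together with the rRNAs and tRNAs that translate them inside the organelle. Both strands are transcribed into long precursors in which tRNAs stand between most of the mRNAs and rRNAs. Excision of the tRNAs at both ends, by RNase P and the RNase Z enzyme ELAC2, releases the RNAs on either side, and the tRNAs then receive their CCA ends and base modifications.

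Every value below is a log2 value, and every difference is Oasl1-/- minus WT. Brightness depends on the probes as well as on the RNA, so levels of different probe sets are not read as amounts of RNA relative to each other. Brightness is used across probe sets only to place them against the floor and the controls and to relate the size of a difference to it. Above the floor means here that a probe set's value was over the 95th percentile of 5267 negative controls on that array, 7.68 on the Oasl1-/- array and 7.75 on the WT array. Below that floor a difference is given as measured and no fold is drawn from it. There being 1 array per genotype, no difference could be checked against replicates, no test was made, and the number of arrays limits the precision of every value. The members were selected by chromosome, but the set was chosen from these same differences between Oasl1-/- and WT, so their values are a description of the 2 arrays and no independent evidence.

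The array medians were 5.74 in Oasl1-/- and 5.72 in WT, and the median difference of 28815 main probe sets was 0.02. Oasl1 itself measured 11.13 in Oasl1-/- and 12.59 in WT, a 2.76-fold lower value, and the sources used here do not say which of its probes lie in the deleted part. All 10 macrophage markers were above the floor on both arrays, at 9.54 to 12.88 in Oasl1-/- and 9.51 to 12.85 in WT, with a median difference of 0.03. None of the 5 fibroblast, 5 neutrophil, 3 T cell, 3 B cell, 3 dendritic cell and 3 erythroid markers exceeded the floor on either array. Measured without the floor, all 5 neutrophil markers were nevertheless higher in Oasl1-/- (median difference 0.61, at 4.81 to 6.85 in Oasl1-/- and 4.64 to 6.24 in WT), as were all 3 dendritic cell markers (median 0.32). The medians of the other 4 lists lay between -0.12 and 0.14. The part of other cells in the tRNA values was not tested.

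The tRNA probe sets were the ones that differed between the arrays. Of the 18, 17 measured lower in Oasl1-/- and 1 measured higher, where 46.6% of all main probe sets measured lower. Their median difference was -0.59 and their differences ran from -1.08 to 0.13. Among the 8 above the floor on at least 1 array, 7 measured lower and the median was -0.39. Of the main probe sets outside the mitochondrial genome that were above it, 61.6% measured lower, with a median of -0.04. The 14 rRNA and mRNA probe sets of the same genome had a median difference of 0.01, from -0.08 to 0.14, with 5 lower and 9 higher. In bulk RNA, fewer cells or mitochondria with a transcript and less of that transcript in each cannot be told apart.

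**Figure D1:**
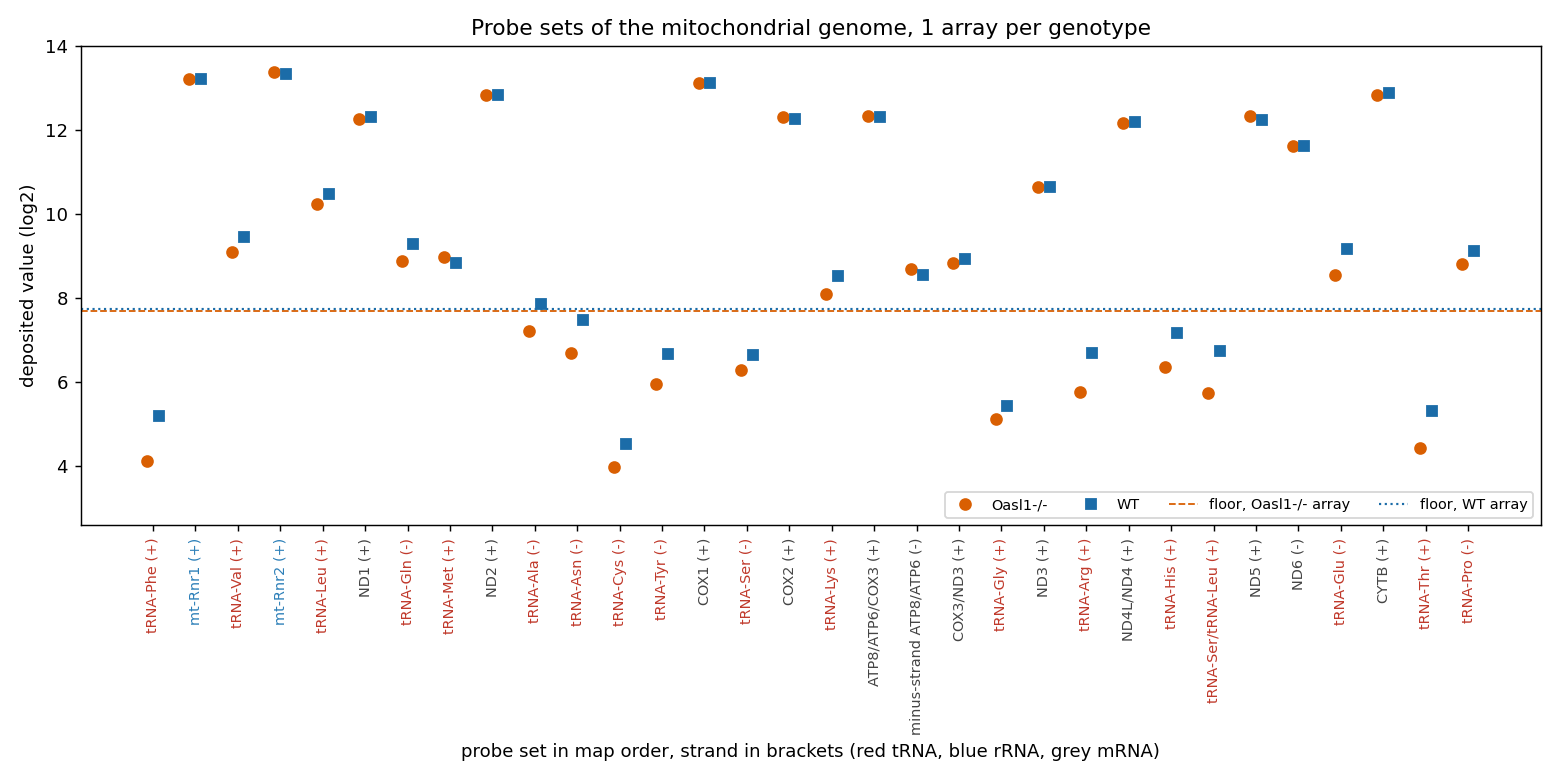
Deposited log2 value of each of the 32 probe sets on the Oasl1-/- array (circles) and the WT array (squares), in map order along the mitochondrial genome, with the strand in brackets. Dashed and dotted lines are the floors of 7.68 (Oasl1-/-) and 7.75 (WT). Circles lie below squares for 17 of 18 tRNAs, while both symbols nearly coincide for the rRNAs and most mRNAs.

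On at least 1 array, 22 of the 32 probe sets were above the floor, where 27.1% of main probe sets were. They were all 14 of the rRNAs and mRNAs and 8 of the 18 tRNAs, 7 of these on both arrays and 1 on the WT array only, while 10 tRNA probe sets were below it on both. The tRNA for glutamate (minus strand, chrM:14071-14139), which lies between the genes of ND6 and cytochrome b, measured 8.55 in Oasl1-/- and 9.18 in WT. That is 1.54-fold lower and was the only probe set of the mitochondrial genome past a 1.5-fold threshold. Among main probe sets above the floor, 0.333% (26 of 7804) passed this threshold downwards and 0.295% (23) upwards. It lies close to the threshold, and fell short of it with a loess trend removed, after quantile normalization and with 32 added to the linear values.

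Of the other tRNAs above the floor on both arrays, each differed by less than that for glutamate. The tRNA for lysine (plus strand, chrM:7700-7764), between COX2 and ATP8, measured 8.10 in Oasl1-/- and 8.52 in WT, 1.34-fold lower. The tRNA for glutamine (minus strand, chrM:3772-3842), whose gene overlaps that of the tRNA for isoleucine on the opposite strand, measured 8.87 in Oasl1-/- and 9.29 in WT, 1.33-fold lower. The tRNA for valine (plus strand, chrM:1025-1093), which separates both rRNA genes and has been found as a structural part of the mitochondrial ribosome in some mammals, measured 9.09 in Oasl1-/- and 9.46 in WT. The Oasl1-/- value was 1.29-fold lower. These differences were close to one another in size.

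The tRNA for proline (minus strand, chrM:15356-15422), the last gene before the control region, measured 8.82 in Oasl1-/- and 9.12 in WT, 1.24-fold lower. The tRNA for leucine between the larger rRNA and ND1 (plus strand, chrM:2676-2750) measured 10.23 in Oasl1-/- and 10.47 in WT, 1.18-fold lower. Its gene holds the site where transcription from the rRNA promoter can be stopped by the termination factor MTERF1, as known from human cells. The tRNA for alanine (minus strand, chrM:5018-5086) measured 7.21 in Oasl1-/-, under the floor, and 7.86 in WT, above it, and was therefore at least 1.13-fold lower, while its measured difference was -0.65.

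The tRNA for methionine (plus strand, chrM:3845-3913) was the one exception in direction. It measured 8.97 in Oasl1-/- and 8.85 in WT, 1.09-fold higher. Mitochondria use this single tRNA both to start proteins, after formylation, and to extend them. The neighbours on either side of it are the tRNA for glutamine, which was lower, and ND2, which differed by 0.01.

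The 10 tRNA probe sets below the floor on both arrays all measured lower in Oasl1-/-, with a median difference of -0.79 and a range from -1.08 to -0.32. The tRNA for phenylalanine (plus strand, chrM:1-68), the first gene of the heavy-strand transcript, measured 4.12 in Oasl1-/- and 5.20 in WT. The probe set shared by the adjoining tRNAs for serine and leucine (plus strand, chrM:11613-11741) measured 5.75 in Oasl1-/- and 6.73 in WT. The tRNA for arginine (plus strand, chrM:9808-9875) measured 5.77 in Oasl1-/- and 6.69 in WT. These had the largest differences, and each lay where control probe sets also lie.

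The remaining probe sets below the floor were those of the tRNAs for asparagine, cysteine, tyrosine and serine on the minus strand and glycine, histidine and threonine on the plus strand. They measured 3.98 to 6.70 in Oasl1-/- and 4.54 to 7.47 in WT, with differences from -0.87 to -0.32. As a position among the controls, the 10 dim probe sets exceeded 37.1% to 87.9% of the negative controls in Oasl1-/- and 44.8% to 93.3% in WT. No fold is drawn from them. Of all 18, 9 (50.0%) measured at least 1.5-fold lower when the floor was left aside, against 0.816% of all main probe sets (0.639% measured at least 1.5-fold higher). Of those 9, 7 were below the floor on both arrays.

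**Figure D2:**
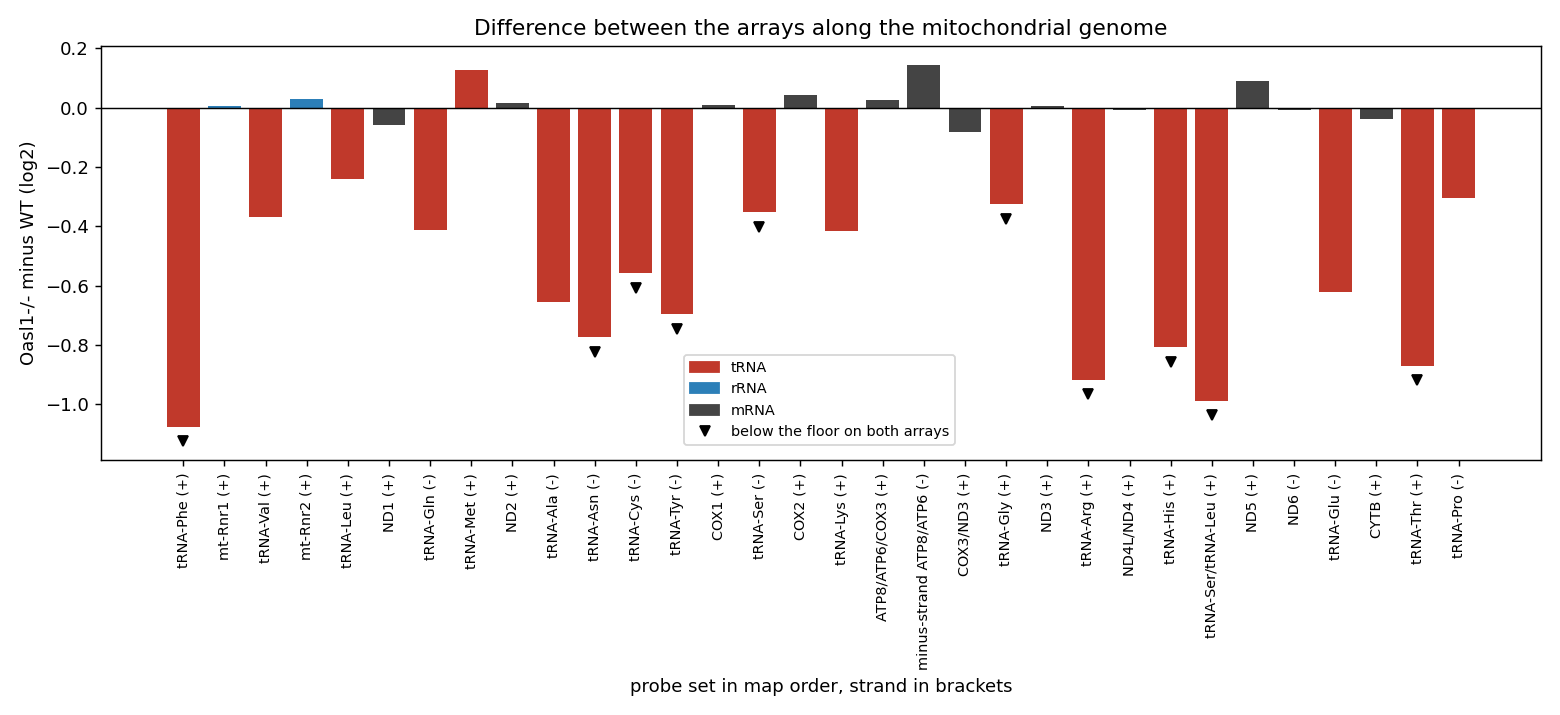
Difference (Oasl1-/- minus WT, log2) of each of the 32 probe sets in map order, with tRNAs in red, rRNAs in blue and mRNAs in grey. Triangles mark probe sets below the floor on both arrays. The red bars point down for 17 of 18 tRNAs and the largest of them carry triangles.

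Over all tRNA probe sets, with the floor left aside, those of both strands measured lower to a similar degree. The 10 probe sets on the plus strand had a median difference of -0.61, with 9 lower, and the 8 on the minus strand had a median of -0.59, with all 8 lower. Among those above the floor on at least 1 array, the medians were -0.30 for 4 on the plus strand and -0.52 for 4 on the minus strand. The plus strand of the map carries the RNAs transcribed from the heavy strand, which are most of the genes, while the minus strand carries ND6 and the remaining tRNAs. Across the 18 tRNA probe sets, which share both arrays, the difference correlated with the mean level (Pearson r = 0.61, Spearman rho = 0.62), so that the dimmer ones had the more negative differences. The correlation was weaker with the start position (r = -0.20, rho = -0.20) and near 0 with the number of probes (r = 0.03, rho = 0.04). With the span in bases, the measures of correlation had opposite signs (r = -0.30, rho = 0.11). These correlations are across probe sets, which are not independent replicates.

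Both rRNAs were among the probe sets that hardly differed. The smaller rRNA, mt-Rnr1 (plus strand, chrM:70-1024), is the core of the small subunit of the mitochondrial ribosome and measured 13.21 in Oasl1-/- and 13.20 in WT. The larger, mt-Rnr2 (plus strand, chrM:1094-2675), is the core of the large subunit and measured 13.37 in Oasl1-/- and 13.34 in WT. Their differences of 0.01 and 0.03 changed sign under other scalings.

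The mRNAs of the NADH dehydrogenase, complex I, were close to equal on both arrays. ND1 (chrM:2751-3774), a core subunit of the membrane arm, measured 12.26 in Oasl1-/- and 12.32 in WT. ND2 (chrM:3914-5016), a proton-pumping subunit, measured 12.84 in Oasl1-/- and 12.83 in WT. The spans of the ND1 and ND2 probe sets also cover the tRNAs for isoleucine and tryptophan, which had no probe set of their own.

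The probe set at ND3 (chrM:9459-9806) measured 10.65 in Oasl1-/- and 10.64 in WT. The joint probe set of ND4L and ND4 (chrM:9877-11544), overlapping genes on one mRNA, measured 12.18 on both arrays with a difference of -0.01. ND5 (chrM:11742-13565), the longest of the proton-pumping subunits, measured 12.34 in Oasl1-/- and 12.25 in WT, a difference of 0.09. ND6 (minus strand, chrM:13552-14070), the sole mRNA transcribed from the light strand, measured 11.62 on both arrays, with a difference of -0.01. The minus-strand ND6 mRNA was thus as close between the arrays as the plus-strand mRNAs, whereas the minus-strand tRNA next to it, for glutamate, was the one past the threshold.

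Cytochrome b (CYTB, chrM:14145-15288), the mitochondrially encoded subunit of complex III, measured 12.84 in Oasl1-/- and 12.88 in WT, a difference of -0.04. COX1 (chrM:5328-6872), the catalytic subunit of cytochrome c oxidase (complex IV), measured 13.12 in Oasl1-/- and 13.11 in WT. The probe set at COX2 (chrM:6942-7699), which encodes the subunit that takes electrons from cytochrome c and whose span also covers the tRNA for aspartate, measured 12.30 in Oasl1-/- and 12.25 in WT. The largest of these differences in size was the 0.04 of COX2.

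The ATP synthase subunits ATP8 and ATP6 and the oxidase subunit COX3 share a probe set (plus strand, chrM:7766-9390), as their genes overlap or abut on one transcript. It measured 12.33 in Oasl1-/- and 12.31 in WT. A probe set spanning COX3, the tRNA for glycine and ND3 (chrM:8608-9806) measured 8.84 in Oasl1-/- and 8.92 in WT, with a difference of -0.08. A probe set placed on the minus strand within ATP8 and ATP6 (chrM:7843-8146) measured 8.70 in Oasl1-/- and 8.56 in WT, 1.11-fold higher. The deposited table assigns 19 of its 25 probes to the plus-strand ATP6 transcript, so the strand it measures is not settled.

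Of the mRNA probe sets, 3 carry symbols of nuclear genes in the deposited table, Prf1 at COX2 and Ptprd at both probe sets over ND3. Their positions match the mitochondrial genes of RefSeq, and only 7 of 29, 12 of 64 and 12 of 25 of their probes are assigned to the transcript behind the symbol. The probe sets at the own loci of these genes were below the floor, Prf1 at 6.49 in Oasl1-/- and 5.86 in WT and Ptprd at 4.84 in Oasl1-/- and 4.67 in WT. Without the 3, the median difference of the mRNA probe sets was 0.01, as with them.

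A stretch of mouse chromosome 1 holds a nuclear copy of mitochondrial sequence, and RNA of either origin may bind its probe sets. The copy of ND4L (minus strand, chr1:24619243-24619539) measured 10.62 in Oasl1-/- and 10.67 in WT. The copy of ATP6 (minus strand, chr1:24620810-24621629) measured 12.37 in Oasl1-/- and 12.34 in WT, and another probe set there, with the symbol Prf1 (minus strand, chr1:24621718-24622407), measured 12.37 in Oasl1-/- and 12.33 in WT. Their differences, from -0.04 to 0.04, were within the range of the mitochondrial mRNAs. The share of RNA from the nuclear copy was not tested.

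Along the map, most tRNAs differed more between the arrays than the RNAs encoded beside them. Of the 15 tRNA probe sets with an rRNA or mRNA probe set beside them, 14 had a lower difference than each such neighbour, the exception being the tRNA for methionine beside ND2. All 7 that lie between an rRNA or mRNA on both sides had a lower difference than both. Some of these neighbours lie on the opposite strand and so belong to another precursor. With neighbours of the same strand only, 10 of 11 tRNA probe sets had a lower difference than each neighbour, as did all 5 that lie between such neighbours. The tRNA for valine, for example, differed by -0.37 between rRNAs that differed by 0.01 and 0.03. These counts follow from the difference between the classes and are no separate evidence on position. Every tRNA probe set except that for methionine differed by about -0.24 or less, and the lowest difference of an rRNA or mRNA was -0.08. The neighbours were also brighter than the tRNAs, and bright probe sets vary less.

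The differences of the tRNAs were also set against those of other probe sets of like brightness, since dim probe sets vary more. In bins of 1 log2 unit of mean level, 15 of the 18 tRNA probe sets lay below the 5th percentile of the main probe sets outside the mitochondrial genome. The exceptions were the tRNAs for methionine and proline and the minus-strand tRNA for serine. Between levels of 6 and 7, 5 tRNA probe sets had a median difference of -0.81, against a median of 0.03 and a 5th percentile of -0.45 for the others. Between levels of 9 and 10, 2 tRNA probe sets had a median of -0.39, against a median of -0.04 and a 5th percentile of -0.29.

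**Figure D3:**
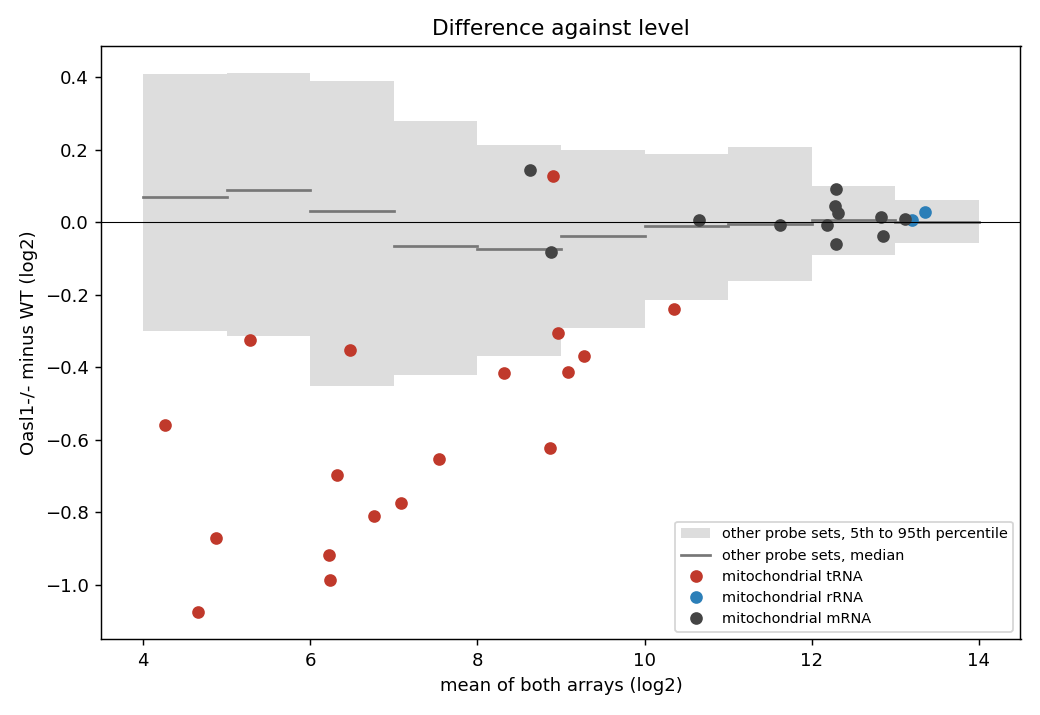
Difference (Oasl1-/- minus WT, log2) against the mean of both arrays (log2) for the mitochondrial tRNAs (red), rRNAs (blue) and mRNAs (grey). The grey band spans the 5th to 95th percentile of the other main probe sets in bins of 1 log2 unit and the lines are their medians. Red points lie below the band in 15 of 18 cases, while most blue and grey points lie within it.

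Other kinds of small or structured RNA were compared as probe sets annotated so in the deposited table. Nuclear snoRNAs guide rRNA modification, and only part of them are of similar length. They had a median difference of -0.12 over 306 probe sets, 201 of them lower and 5.56% measured at least 1.5-fold lower. The 149 snoRNA probe sets spanning 59 to 80 bases had a median of -0.12 with 79.2% lower, and the 157 longer ones a median of -0.01 with 52.9% lower. Most snoRNA probe sets, 294 of 306, were below the floor on both arrays. The short snoRNAs thus measured lower in Oasl1-/- too. Their median over all probe sets was closer to 0 than that of the mitochondrial tRNAs, but among those above the floor it was -0.41 for 3 short snoRNAs and -0.39 for 8 mitochondrial tRNAs.

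The medians of the other annotated kinds lay near or above 0. The median difference was -0.01 for 479 snRNA, 0.08 for 72 miRNA and 0.09 for 105 nuclear rRNA probe sets. All 1621 main probe sets outside the mitochondrial genome whose span in bases lies within the range of the tRNA probe sets had a median of -0.003, with 50.7% lower and 2.96% measured at least 1.5-fold lower. That range, 65 to 129 bases, owes its upper end to the probe set shared by the tRNAs for serine and leucine. The next longest tRNA probe set spans 75 bases, so many of the 1621 may be longer than most of the tRNAs. The intron controls were displaced downwards by more than the snoRNAs. These 5222 probe sets, which carry at most 4 probes each, against 10 to 30 for a mitochondrial tRNA, had a median of -0.16 with 63.4% lower, and 22.9% measured at least 1.5-fold lower. Their 5th and 95th percentiles were -1.16 and 0.68, and the differences of all 18 mitochondrial tRNA probe sets lay between these. The 45 antigenomic controls had a median of 0.14. The part of dim signal, of RNA length and of RNA recovery in the tRNA values was not tested.

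**Figure D4:**
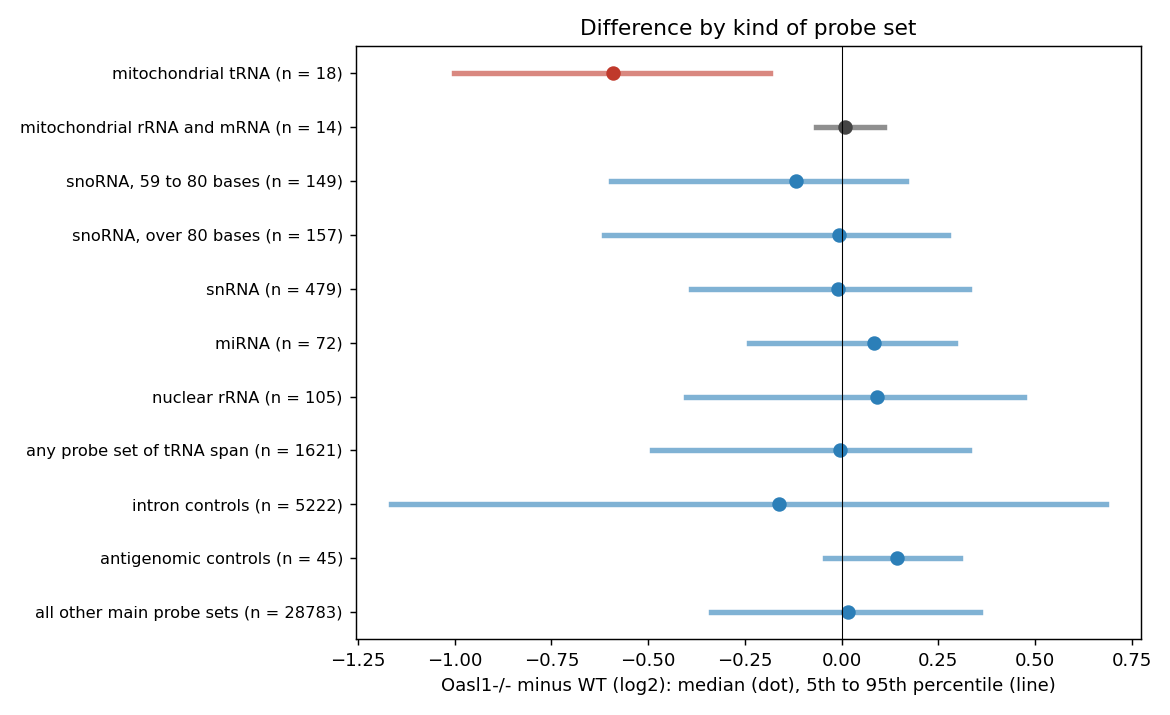
Median difference (dot) and 5th to 95th percentile of the differences (line), Oasl1-/- minus WT on the log2 scale, for each kind of probe set, with the number of probe sets in brackets. The mitochondrial tRNAs have a median of -0.59 and the mitochondrial rRNAs and mRNAs one of 0.01. The intron controls have the widest spread, with a median of -0.16.

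Nuclear genes that make, process and use mitochondrial RNA were followed through 7 lists of 79 genes, of which 23 were above the floor. None was at least 1.5-fold higher or lower, against 0.283% and 0.298% of 6370 genes above the floor. Of the 23, 8 had a difference above 0 and 15 below it, near the 63.5% of all genes above the floor with a difference below 0. Their median difference was -0.06, against -0.04 for all genes above the floor, and over all 79, most of them below it, -0.12.

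In the transcription list, 3 of 10 genes were above the floor, all with a difference below 0. Mterf3, a negative regulator of mitochondrial transcription that also serves ribosome assembly, measured 7.97 in Oasl1-/- and 8.39 in WT. Tfam, which packages mitochondrial DNA and starts its transcription, measured 7.96 in Oasl1-/- and 8.22 in WT. Polrmt, the mitochondrial RNA polymerase, was below the floor on both arrays, at 7.33 in Oasl1-/- and 7.21 in WT.

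Of 4 genes for excision of tRNAs from the precursor, 1 was above the floor. This was Hsd17b10, a subunit of the mitochondrial RNase P and of its tRNA methyltransferase, at 9.94 in Oasl1-/- and 9.83 in WT. Of 14 tRNA modification genes 2 were above the floor, with opposite signs. Nsun3, which methylates a cytosine of the tRNA for methionine, measured 7.77 in Oasl1-/- and 8.09 in WT. Trnt1, which adds the CCA end, measured 10.60 in Oasl1-/- and 10.44 in WT. With the floor left aside, as in the count of the dim tRNAs, 11 of the 14 tRNA modification genes measured lower in Oasl1-/-, with a median difference of -0.22, and 2 of the 4 excision genes did. This was not particular to tRNA genes. Lower were also 14 of 16 DNA maintenance, 13 of 17 stability and decay, 7 of 10 transcription, 5 of 7 biogenesis and 6 of 11 rRNA and ribosome genes. Of the main probe sets outside the mitochondrial genome, 44.1% measured lower at mean levels of 6 to 7 and 62.9% at 7 to 8.

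RNA stability and decay had 10 of 17 genes over the floor, whose median difference was -0.04. Grsf1, which forms RNA granules with newly made transcripts, measured 8.70 in Oasl1-/- and 8.86 in WT. Lrpprc, which stabilises the mRNAs of the mitochondrion, measured 8.23 in Oasl1-/- and 8.10 in WT. In rRNA modification and ribosome assembly, 2 of 11 genes were above the floor. Nsun4, an rRNA methyltransferase, measured 8.25 in Oasl1-/- and 8.17 in WT, and Eral1, a chaperone of the smaller rRNA, measured 7.87 in Oasl1-/- and 7.82 in WT.

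Maintenance of mitochondrial DNA had 2 of 16 genes above the floor. Cmpk2, an interferon-induced mitochondrial nucleotide kinase that supports mitochondrial DNA synthesis in activated macrophages, measured 12.32 in Oasl1-/- and 12.37 in WT. Ssbp1, which binds single-stranded mitochondrial DNA, measured 9.17 in Oasl1-/- and 9.28 in WT, through a probe set on another chromosome than the gene. Polg, the replicative polymerase, was below the floor at 7.07 in Oasl1-/- and 7.44 in WT. Of 7 biogenesis regulators 3 were above the floor, and Gabpa, the DNA-binding subunit of the nuclear respiratory factor GABP, measured 8.92 in Oasl1-/- and 9.30 in WT, while its partner Gabpb1 measured 8.19 in Oasl1-/- and 8.42 in WT.

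Genes that charge the tRNAs and the nuclear subunits of the respiratory complexes were listed after the tRNA values had been seen. Of 23 charging genes 4 exceeded the floor, and their median difference was -0.03. Mtfmt, which formylates the methionyl tRNA, measured 7.37 in Oasl1-/-, below the floor, and 7.80 in WT, while Kars, which charges the tRNA for lysine, measured 9.65 in Oasl1-/- and 9.70 in WT. Of 69 nuclear subunits of complexes I, III, IV and V, 63 were above the floor, 34 with a difference above 0 and 29 below it, with a median of 0.02. This was close to the median of 0.01 over the 12 mitochondrial mRNA probe sets of the same complexes.

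By complex, the medians were 0.01 for 31 subunits of complex I, -0.08 for 8 of complex III, 0.10 for 10 of complex IV and 0.03 for 14 of complex V. In complex IV 8 of the 10 had a difference above 0. Among these 8, Cox6c and Cox7b were measured through probe sets on another chromosome than the gene. The same holds for Ndufb4 and Ndufb11 of complex I and for Atp5g2 and Atp5l of complex V. Cox6a1, a small regulatory subunit, measured 10.07 in Oasl1-/- and 9.64 in WT, and Cox4i1, the largest nuclear subunit, differed by 0.20. In complex I the subunit genes Ndufa5, at 8.38 in Oasl1-/- and 8.09 in WT, and Ndufa12, with a difference of 0.27, differed most. In complex III Uqcrq and Uqcr10 both differed by -0.12, and in complex V Atp5j2 differed by 0.16 and Atp5e by -0.15. None reached 1.5-fold.

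**Figure D5:**
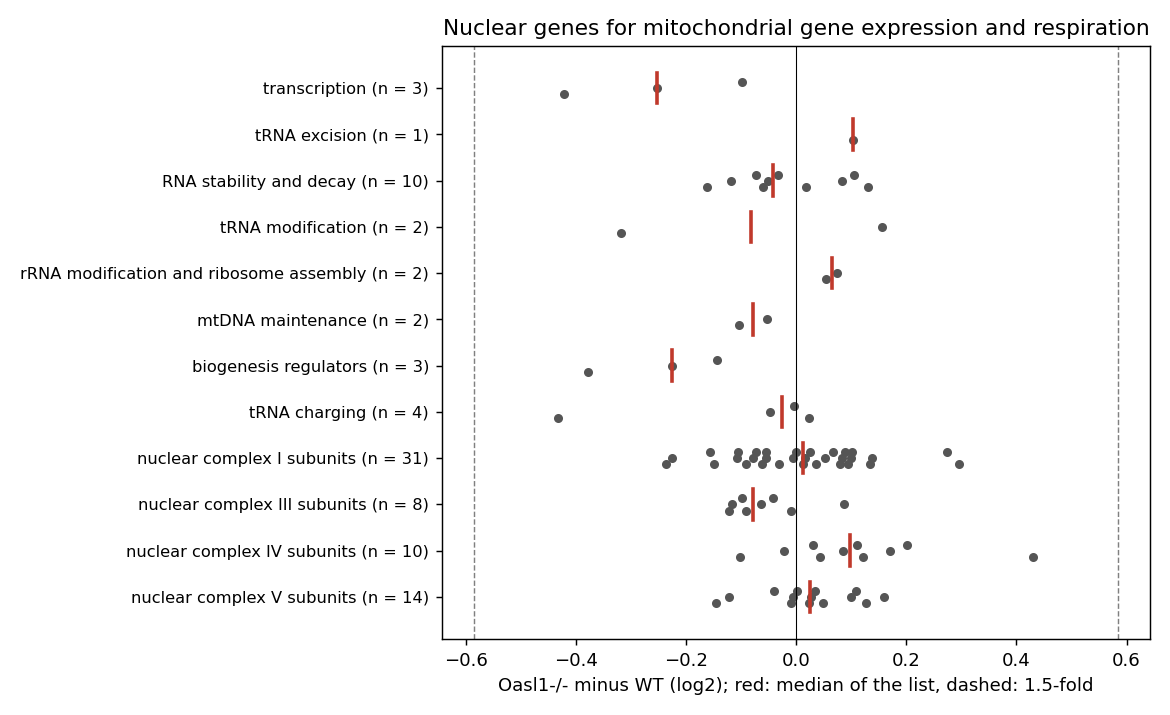
Difference (Oasl1-/- minus WT, log2) of each nuclear gene above the floor on at least 1 array, by list, with the number of genes in brackets. Red bars are the median of each list and dashed lines mark 1.5-fold. All points lie between the dashed lines.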

How the data were processed

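The values are log2 values deposited by the authors, one per probe set and array. GCOS and RMA (background correction, normalization and summary of probes) are named in the submitters' processing notes, and the sources used here do not say whether both arrays were normalized together. The series' design text also names Expression Console and TMEV. The deposited log2 ratio equalled Oasl1-/- minus WT in every row (largest gap 1.78e-15), and the second deposited table differed by 0.

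Mitochondrial probe sets were named by position. In the deposited descriptions, which name the NCBIM37 build, 21 of 21 tRNA and rRNA positions equalled those of RefSeq, whose mitochondrial genome has 37 genes (22 tRNA, 2 rRNA, 13 mRNA). Of the tRNA genes, 19 had a probe set of their own or shared. Nuclear symbols were updated through the GRCm38.p6 annotation (20515 probe sets by accession, 1829 by symbol, 1236 by synonym and 1714 unmatched), giving 22009 genes, each represented by its brightest probe set. No mitochondrial sequence is printed, as none was in the files used here.

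The floor was the 95th percentile of 5222 intron and 45 antigenomic controls, and differences were called at 1.5-fold among probe sets above it on at least 1 array. For probe sets above it on 1 array only, the fold sets the bright value against the floor, or against the dim value where that is higher. Named are every rRNA and mRNA probe set, every tRNA probe set above the floor, the 3 below it with the largest difference, the 2 genes of each nuclear list with the largest difference above the floor, and Oasl1, Polrmt, Tfam, Lrpprc, Polg and Cmpk2. The members and lists were chosen with earlier results of these data known. The tRNA charging list, the respiratory complex lists and 4 of the alternatives were added after seeing the data. Alternatives were other floors, thresholds of 1.2-fold and 2-fold, centred differences, a loess trend removed (span 0.3), quantile normalization, log2 of the linear value plus 32, the second table, and other probe sets per gene. The counting code was tested on simulated data. Scripts ran under Python 3.11.15 with Matplotlib 3.10.9, statsmodels 0.14.6, SciPy 1.17.1, pandas 2.3.3 and NumPy 2.4.6.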

Additional observations from a re-analysis of the deposited data

How the results depend on the processing

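Of 79 values recomputed under an alternative, 66 stayed close to the reported value and 13 moved. Part of the 66 could not have moved. The second table equals the first, and a stricter threshold or floor cannot raise a count of 0. The direction of the tRNA differences held under all 6 scalings, negative for 17 of 18 probe sets and positive for the tRNA for methionine, from -1.15 to 0.18. For several scalings this was fixed in advance. Adding 32 to the linear values cannot change a sign, and the second table held the same values. Centring moved every difference by only 0.02, less than the size of any tRNA difference. Of the mRNA probe sets, 8 of 12 kept their sign, and of the rRNA probe sets 0 of 2. The count of 22 mitochondrial probe sets above the floor was 13 with a floor at the 99th percentile of the controls. The median difference over all 32 probe sets, -0.27, was -0.0072 among those above the floor. The tRNA median, -0.59, was -0.40 with 32 added to the linear values and -0.39 among those above the floor. The count of 1 probe set at least 1.5-fold lower was 5 at 1.2-fold and 9 with no floor, the last chosen after seeing the data. With no floor, 0.816% of all main probe sets measured at least 1.5-fold lower. The share of all probe sets past 1.2-fold was not counted. Among main probe sets above the floor outside the mitochondrial genome, the 5th percentile of differences was -0.32, already past 1.2-fold. The count of mitochondrial probe sets was 0 at 2-fold, 0 with the floor at the 99th percentile, 0 with the loess trend removed, 0 after quantile normalization and 0 with 32 added. Of the nuclear genes in 7 lists, 3 instead of 0 were lower at 1.2-fold, and the share of all genes past that fold was not counted. The median of the listed genes was 0.10 instead of -0.06 with the floor at the 99th percentile, which left fewer genes. The loess trend at the level of the tRNA for glutamate was -0.06. Taking it from the difference of -0.62 left a value short of 1.5-fold. For the quantile normalization the cause was not tested.

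No paired analysis was possible because each genotype has 1 array. For the same reason no replicate was left out. RNA was mixed before labelling, so the spread between cultures is unknown. Signal close to that of the controls limits the 10 of 18 tRNA probe sets below the floor, and to a lesser degree most of the others. Among the tRNAs, only that for leucine beside ND1 exceeded 99% of the controls, at 99.3% in Oasl1-/- and 99.4% in WT.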
